A study of Mus musculus with 6 samples.

Results

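The PPAR and RXR nuclear receptors and 6 genes known as their targets were followed in RAW264.7 cells, a mouse macrophage-like line, with and without IL-4. The members were picked by gene symbol: the receptor genes Pparg, Ppard, Rxra and Rxrb, and the targets Fabp4, Fabp5, Plin2, Cd36, Angptl4 and Pdk4. All 10 were found among the 25124 genes listed. Both groups were the same control line, which had received a plasmid with Cas9 but no gRNA and was made as the counterpart of an E4BP4 knockout line. The medium held 25 mM glucose and 10% FBS. The M2 cells were given IL-4 at 10 ng/ml and the M0 cells none, and the labels do not give the time of treatment. For each of 3 libraries per group, polyadenylated RNA was selected from 200 ng of total RNA and sequenced.

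PPARs bind DNA as partners of an RXR, at direct repeats of a short half-site, and switch on genes when fatty acids or their derivatives bind. Their targets take up, carry, store and burn fatty acids, so the pathway acts as a sensor of lipid inside the cell. In macrophages, PPAR-gamma is known for its part in alternative activation by IL-4 and in lipid loading, and PPAR-delta for its response to fatty acids taken up with lipoproteins.

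With IL-4 the receptor genes went in opposite directions, and so did the targets. Pparg was 3.70-fold higher and Ppard 3.33-fold lower in M2, Rxra was 1.29-fold lower, and Rxrb stood at nearly the same level in both groups. Among the targets, Angptl4 was 1.79-fold and Fabp4 1.31-fold higher, Plin2 was 1.35-fold lower, and Fabp5 did not pass the test. Cd36 and Pdk4 lay below the filter on low values (at least 1 TPM in at least 3 libraries). Of the 8 members tested with limma at an adjusted p under 0.05, 6 were called, where the background over all 11202 genes tested was 43.7%. Of these, 3 rose (background 20.1%) and 3 fell (background 23.7%). Pparg, 1 of the 3 that rose, was below 1 TPM in every M0 library. It was tested only because it passed the filter in M2, so its place in these counts and the next adds no support. The M0 and M2 libraries did not overlap in TPM (transcript abundance scaled for length and depth) for 6 of the 8, where the background was 55.9%. With 8 genes, these counts are a description and say nothing particular about the pathway. Fold differences are ratios of mean TPM, while log2 fold changes are differences of log2(TPM + 1), a scale that shrinks changes where TPM is low. In bulk RNA, a change in the share of cells with a transcript and a change in the amount per cell cannot be told apart.

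The libraries held 15615427 to 19510998 reads, recovered from the TPM values. Nothing in the labels says that replicates were separate cultures, so p-values measure the spread between libraries, which may be technical. The titles of all M0 libraries, and of no M2 library, bear a re-analysis note. Effects of IL-4 and of whatever batch that note may stand for cannot be told apart. The summed level of 8 macrophage markers was 2367 to 2584 TPM in M0 and 2163 to 2273 TPM in M2. All 8 passed the filter. They moved both ways: Adgre1, the F4/80 antigen and the scarcest of them (mean 2.73 TPM in M0, 6.10 in M2), and Fcgr1 rose, and Itgam and Ptprc fell. The part of these shifts in the results below was not tested. Adipocytes are the cells best known for Pparg and Fabp4, and the summed level of 6 adipocyte markers was 0.0840 to 0.243 TPM in M0 and 0.216 to 0.623 TPM in M2. Of these, Adipoq, Lep and Retn had 0 reads over the 3 M0 libraries (a count of 0 allows up to 3) and 2, 3 and 3 reads over the 3 M2 libraries. The markers of 5 other cell types (endothelial, fibroblast, epithelial, T cell, hepatocyte) summed to at most 1.08 TPM for each type in any library.

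**Figure D1:**
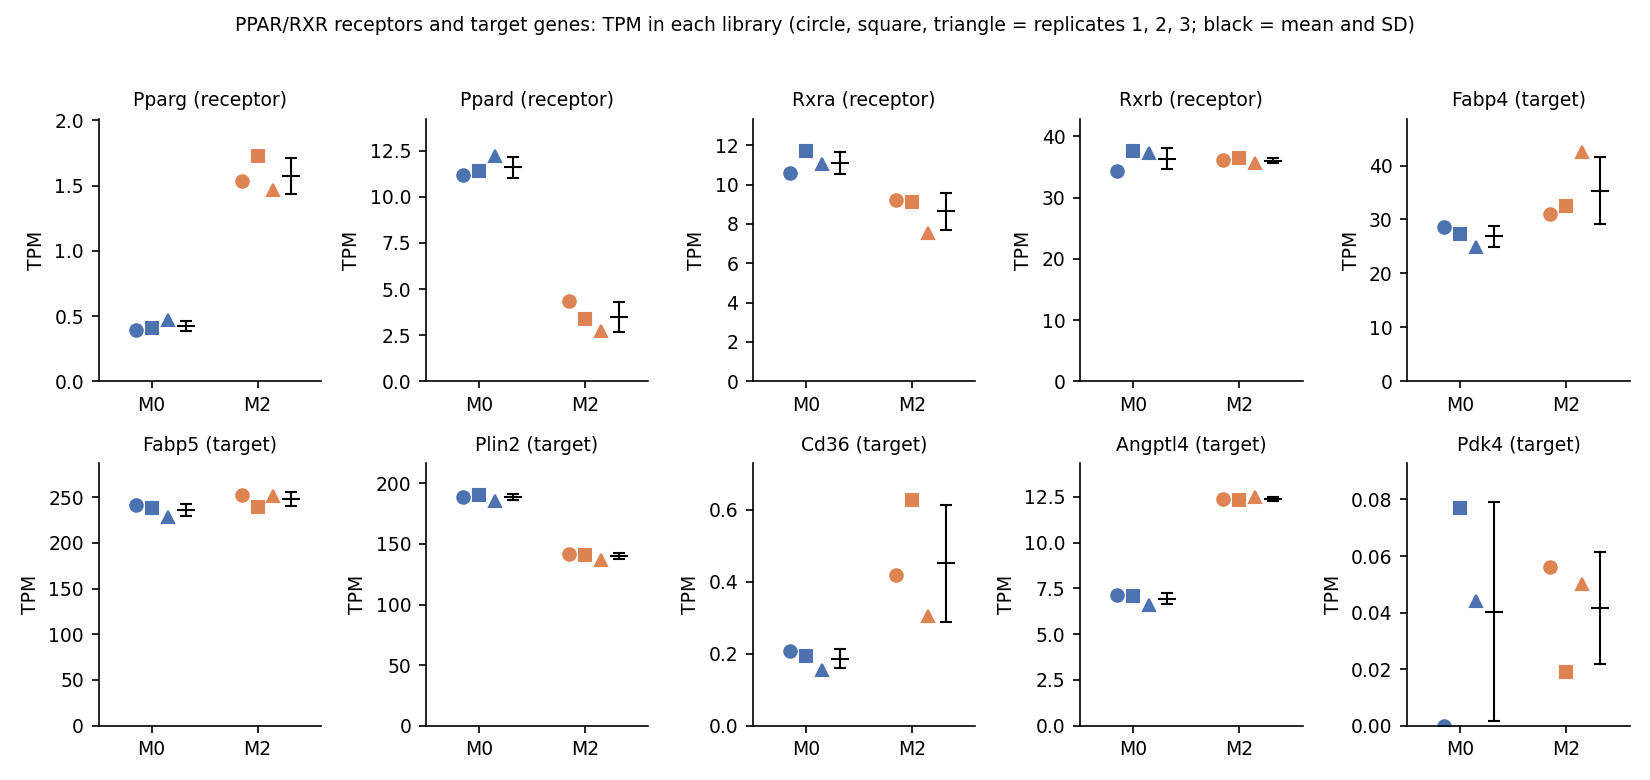
TPM (vertical axes, each from 0) of the 10 genes in each of the 3 M0 (blue) and 3 M2 (orange) libraries; black bars give the mean and SD, and the marker shape gives the replicate number. Pparg, Fabp4, Cd36 and Angptl4 sit higher in all M2 libraries, Ppard, Rxra and Plin2 lower, while Rxrb, Fabp5 and Pdk4 overlap.

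Sequence just upstream of the receptor and target genes is shown for the 4 members on which the account of sites below turns. RefSeq promoter windows (GRCm38.p6, which is mm10; 250 bases before to 50 after a start) were found for 7 of the 10 members, 11 windows in all, and the 250 bases before the start are printed. No window was found for Fabp4, Fabp5 or Angptl4. Both strands were searched for the half-site AGGTCA and for the direct repeat of 2 copies of AGGTCA separated by 1 base, the classic PPAR and RXR response element, with mismatches allowed. The STAT6 type of site, TTC and GAA spaced by 4 bases, was searched as well. Capitals mark the best match to the direct repeat in Rxra, Plin2 and Cd36, and the half-site in Pparg.
Pparg, chr6:115362099-115362348, plus strand: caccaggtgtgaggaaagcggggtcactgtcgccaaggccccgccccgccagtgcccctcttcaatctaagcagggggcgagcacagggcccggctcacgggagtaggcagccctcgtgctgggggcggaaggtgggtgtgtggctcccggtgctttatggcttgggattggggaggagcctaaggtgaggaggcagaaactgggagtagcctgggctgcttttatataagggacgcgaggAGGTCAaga
Rxra, chr2:27709042-27709291, plus strand: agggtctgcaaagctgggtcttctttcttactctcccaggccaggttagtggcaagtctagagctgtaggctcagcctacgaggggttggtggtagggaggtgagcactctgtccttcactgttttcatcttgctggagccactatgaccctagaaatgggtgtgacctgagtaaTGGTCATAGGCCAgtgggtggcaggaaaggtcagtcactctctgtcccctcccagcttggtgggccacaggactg
Plin2, chr4:86670060-86670309, minus strand: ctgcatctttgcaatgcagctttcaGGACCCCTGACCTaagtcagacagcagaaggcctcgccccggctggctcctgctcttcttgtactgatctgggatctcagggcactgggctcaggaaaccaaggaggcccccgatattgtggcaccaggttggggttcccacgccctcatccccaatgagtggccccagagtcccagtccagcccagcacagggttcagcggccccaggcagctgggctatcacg
Cd36, chr5:17835897-17836146, minus strand: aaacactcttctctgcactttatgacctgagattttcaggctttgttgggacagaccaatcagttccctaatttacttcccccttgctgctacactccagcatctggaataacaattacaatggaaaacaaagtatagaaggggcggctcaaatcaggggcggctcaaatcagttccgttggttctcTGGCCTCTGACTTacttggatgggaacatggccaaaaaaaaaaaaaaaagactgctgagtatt
A direct repeat with 2 mismatches lay in the printed windows of Rxra, Plin2 and Cd36, starting 75, 225 and 63 bases before the start. Of the 32851 promoter windows searched, 3.86% hold one with at most 2. The match of Rxra reads on the strand printed, and those of Plin2 and Cd36 on the opposite strand. Another Rxra window, whose start lies 32091 bases from that of the transcript model measured here, had a best match with 5 mismatches. The best matches in all other windows had 4 or 5 mismatches, including the 3 of Pparg and the 1 each of Ppard and Pdk4. The Pparg window at the start of the measured transcript holds 1 AGGTCA, and the Ppard window holds 0. The printed windows of Rxra, Plin2 and Cd36 hold 2, 1 and 1. Of the windows searched, 16.3% hold AGGTCA at least once. Among the windows of the members, the STAT6 type of site lay only in that of Cd36, 21 bases after the start and so past the bases printed. It occurs in 6.95% of the windows searched. The Cd36 window belongs to another start, 13896 bases from that of the transcript model measured here. These matches describe letters only. Of the genes with a direct repeat at 2 mismatches, Rxra and Plin2 fell, and Cd36, which lay below the filter, was higher in M2. Fabp4 and Angptl4, the targets that rose, had no window to search, so no link between match and direction can be read here.

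Pparg encodes PPAR-gamma, the member of the family best known from fat cells and alternatively activated macrophages. It was measured on NM_001308354 (mm10 chromosome 6, 115362349 to 115490401, plus strand). Its level was 0.396, 0.411 and 0.470 TPM in M0 replicates 1, 2 and 3, and 1.53, 1.73 and 1.47 TPM in M2. All M2 libraries lay above all M0 libraries, and the mean went from 0.426 ± 0.0391 to 1.58 ± 0.137 TPM (SD, n = 3 each). Pparg rose, with a log2 fold change of 0.85 (SE 0.104, 95% interval 0.62 to 1.09; limma adjusted p = 2.93e-04). The values rest on few reads: 11, 11 and 11 in M0 and 42, 46 and 45 in M2, for a rate ratio of 3.73 with a 95% interval of 2.53 to 5.64 that covers counting error only. No M0 library reached 1 TPM, so the gene passed the filter on low values through the M2 libraries alone. The size depends on the scale. With limma-voom on recovered reads, which adds no 1 TPM, the log2 fold change was 1.88, with a pseudocount of 0.1 it was 1.67, from the log2-scale values the authors deposited it was 0.31, and in the test of the authors' deposited table it is 1.93. An antisense gene, Gm44079, lies within the locus on the other strand and shares 0 exon bases with the Pparg transcripts.

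Ppard encodes PPAR-delta, which is made in most tissues and favours fatty acid burning. The measured model is NM_011145 (chromosome 17, 28232754 to 28301469, plus strand). Ppard stood at 11.2, 11.4 and 12.2 TPM in the M0 libraries and at 4.34, 3.37 and 2.74 TPM in the M2 libraries. The groups were far apart, and the highest M2 library was below every M0 library. The mean fell from 11.6 ± 0.558 to 3.49 ± 0.806 TPM (SD, n = 3 each), on 1639 reads in M0 and 532 in M2. Its log2 fold change was -1.51 (SE 0.128, 95% interval -1.80 to -1.22; limma adjusted p = 4.35e-05), the 28th largest fall among all 11202 genes tested. The lowest value came from M2 replicate 3, and without that library the log2 fold change was -1.38 (limma adjusted p = 1.72e-05).

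The 2 changes together shifted the make-up of the PPAR transcripts. Ppard was 28.2, 27.8 and 26.0 times as abundant as Pparg in the M0 libraries, and 2.83, 1.95 and 1.87 times in the M2 libraries. Expressed as a share of the pair, Ppard made up 96.5% on average in M0 and 68.4% in M2. Each M2 ratio was thus below each M0 ratio, and Ppard remained the more abundant of the pair in all 6 libraries. The log2 ratio fell by 3.65 from M0 to M2 and stayed between -3.84 and -3.54 with any 1 library left out. That range does not cover counting error, and each M0 ratio rests on 11 Pparg reads. The rate ratio of Pparg alone had a 95% interval of 2.53 to 5.64, so the size of the shift is uncertain. An exact two-sided permutation test gave p = 0.1 (n = 3 each), the smallest value that 3 against 3 can give, and 0.1 after adjustment over the 3 ratios tested. Ppara, the third PPAR, had 12 reads over the M0 and 12 over the M2 libraries, or 0.0377 ± 0.0179 and 0.0337 ± 0.0199 TPM (SD, n = 3 each). It lay below the filter, and was named here after its values were seen, as was Rxrg, which had 0 and 2 reads.

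Rxra and Rxrb encode RXR-alpha and RXR-beta, the obligate partners of the PPARs and of several other nuclear receptors. Rxra (NM_001290481, chromosome 2, 27709292 to 27763319, plus strand) stood at 10.6, 11.7 and 11.05 TPM without IL-4 and at 9.24, 9.12 and 7.55 TPM with it. The groups did not overlap, and M2 replicate 3 was the lowest. The mean was 11.1 ± 0.566 TPM in M0 and 8.64 ± 0.940 TPM in M2 (SD, n = 3 each), with a log2 fold change of -0.33 (SE 0.0936, 95% interval -0.55 to -0.12; limma adjusted p = 0.0185). Rxra fell by that test, but the call ended without M0 replicate 2 (limma adjusted p = 0.0785) and without M0 replicate 3 (0.0602), in a range of 0.00301 to 0.0785 over 15 alternatives. Transcripts over 4000 bases, as that of Rxra is, stood 0.28 lower in M2 replicate 3 than in the other M2 libraries (median on the log2 scale over 2231 genes). Without that library the log2 fold change of Rxra was -0.25 (limma adjusted p = 0.0150), and after removal of the length trend -0.24 (0.00401).

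Rxrb (NM_001205215, chromosome 17, 34032350 to 34038403, plus strand) had 34.4, 37.6 and 37.2 TPM in M0 and 36.1, 36.4 and 35.7 TPM in M2. All M2 values lay inside the range of the M0 values. The log2 fold change of -0.01 (SE 0.0590) had a 95% interval of -0.15 to 0.12 and did not pass (limma adjusted p = 0.886), and its sign turned under 7 of 15 alternatives. Per length, Rxrb was the most abundant of the 4 receptor transcripts in every library. Of the RXR pair, Rxra made up 23.5%, 23.8% and 22.9% in M0 and 20.4%, 20.03% and 17.5% in M2. The 3 M2 shares lay below the 3 M0 shares. The log2 ratio of Rxra to Rxrb fell by 0.36, and by 0.27 without M2 replicate 3 (exact two-sided permutation p = 0.1, n = 3 each, again the smallest possible, and 0.1 adjusted over 3 ratios). The 4 receptor transcripts together came to 56.6 to 61.1 TPM in the M0 libraries and 47.5 to 51.2 TPM in the M2 libraries.

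**Figure D2:**
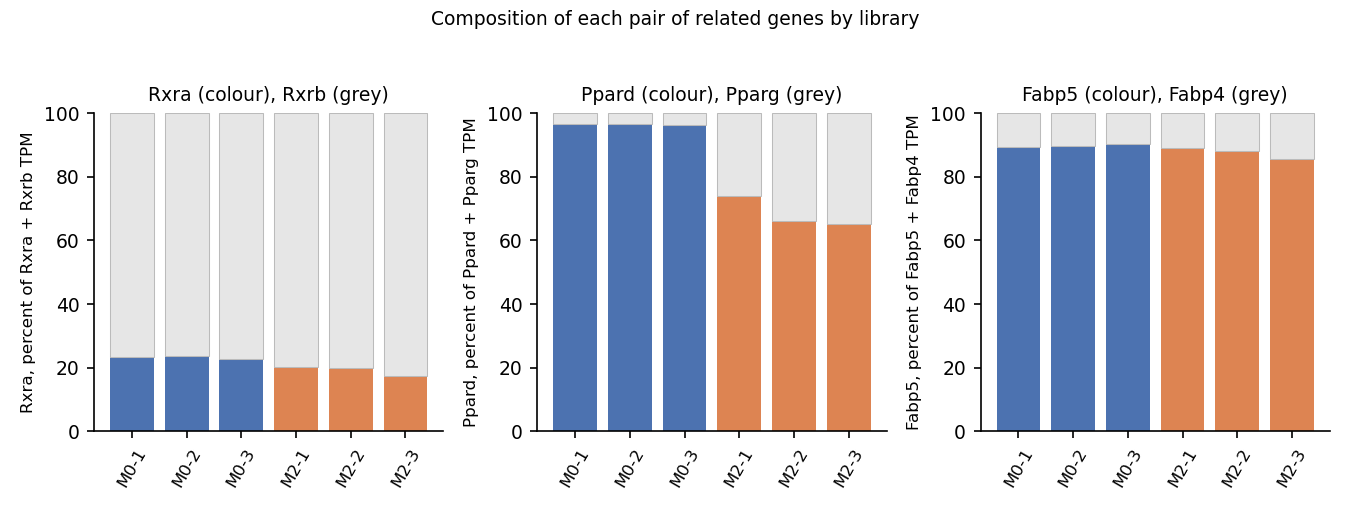
Share (percent, vertical axis) that the first gene of each pair takes of the summed TPM of the pair, in each M0 (blue) and M2 (orange) library. The share of Ppard in the sum of Ppard and Pparg goes from about 96.5% in M0 to between 65.2% and 73.9% in M2, while the shares of Rxra and Fabp5 in their pairs move by a few points.

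Fabp4 and Fabp5 encode small carriers that bind fatty acids in the cytoplasm and deliver them to membranes, enzymes and nuclear receptors. Fabp4 (NM_024406, chromosome 3, 10204343 to 10208616, minus strand) had 28.6, 27.3 and 24.8 TPM in M0 and 31.1, 32.5 and 42.6 TPM in M2. Every M2 library was above every M0 library, with M2 replicate 3 well above the rest. The mean was 26.9 ± 1.92 TPM in M0 and 35.4 ± 6.29 TPM in M2 (SD, n = 3 each), on 805 and 1155 reads. Fabp4 rose by a log2 fold change of 0.37 (SE 0.114, 95% interval 0.11 to 0.63; limma adjusted p = 0.0277). The call ended with no filter on low values (limma adjusted p = 0.0805), without M0 replicate 2 (0.0626) and without M0 replicate 3 (0.102), in a range of 0.00726 to 0.102 over 15 alternatives. Transcripts under 1000 bases, as that of Fabp4 is, stood 0.17 higher in M2 replicate 3 than in the other M2 libraries (median on the log2 scale over 900 genes). Without that library the log2 fold change of Fabp4 was 0.23 (limma adjusted p = 0.0204), more than 1.5 times smaller. After removal of the length trend, with all libraries kept, it was 0.35 (limma adjusted p = 0.00726).

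Fabp5 (NM_001272098, chromosome 3, 10012585 to 10016610, plus strand) was far more abundant, at 241, 238 and 229 TPM in M0 and 252, 239 and 252 TPM in M2. The lowest M2 library fell within the M0 range. The means of 236 ± 6.34 and 248 ± 7.54 TPM (SD, n = 3 each) gave a log2 fold change of 0.07 (SE 0.0525), with a 95% interval of -0.05 to 0.19, and the gene did not pass (limma adjusted p = 0.309). Of the 50-base stretches of its transcript, 21.1% also occur in transcripts of 5 other genes, so its level is less certain. Fabp5 was 8.43, 8.73 and 9.22 times as abundant as Fabp4 in M0 and 8.13, 7.36 and 5.91 times in M2. The M2 ratios lay below the M0 ratios, the lowest in replicate 3. The log2 ratio fell by 0.31, and by 0.18 without M2 replicate 3 (exact two-sided permutation p = 0.1, n = 3 each, the smallest possible, and 0.1 adjusted over 3 ratios).

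Plin2 encodes perilipin 2, the main coat protein of lipid droplets in macrophages. It was measured on NM_007408 (chromosome 4, 86656565 to 86670059, minus strand), just below the upstream sequence printed above. Its level was 189, 190.4 and 186 TPM in M0 and 141, 141 and 137 TPM in M2. The libraries of each group lay within a few TPM of each other, and the groups were far apart. The mean fell from 188 ± 2.38 to 139.8 ± 2.56 TPM (SD, n = 3 each), with a log2 fold change of -0.43 (SE 0.0485, 95% interval -0.54 to -0.32; limma adjusted p = 2.05e-04). It rested on 15622 reads in M0 and 12577 in M2, and 4.89% of its 50-base stretches also occur in Gm12551.

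Cd36 encodes a scavenger receptor that takes up oxidized lipoprotein and long-chain fatty acids. On NM_001159556 (chromosome 5, 17781690 to 17849792, minus strand) its M0 libraries had 0.207, 0.195 and 0.156 TPM and its M2 libraries 0.419, 0.628 and 0.306 TPM. The groups did not overlap, and M2 replicate 2 was the highest. Cd36 lay below the filter and was tested only in alternatives to the model used here. The reads were 11, 10 and 7 in M0 and 22, 32 and 18 in M2, a rate ratio of 2.38 with a 95% interval of 1.52 to 3.83 for counting error only. With no filter, limma gave an adjusted p of 0.0472. The authors' deposited table, which uses another transcript model for this gene, has a log2 fold change of 1.38 and an adjusted p of 0.0165.

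Angptl4 encodes a secreted protein that inhibits lipoprotein lipase and is a sensitive PPAR target in many tissues. On NM_020581 (chromosome 17, 33774900 to 33781575, minus strand) it had 7.11, 7.07 and 6.58 TPM in M0 and 12.4, 12.3 and 12.5 TPM in M2. The M2 libraries were nearly equal and well above the M0 libraries. The mean rose from 6.92 ± 0.298 to 12.4 ± 0.101 TPM (SD, n = 3 each), on 580 and 1126 reads. Its log2 fold change of 0.76 (SE 0.0742, 95% interval 0.59 to 0.93; limma adjusted p = 9.06e-05) was the largest among the 4 targets tested.

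Pdk4 encodes a kinase that shuts off pyruvate dehydrogenase and so favours fat over glucose as fuel. On NM_013743 (chromosome 6, 5483351 to 5496278, minus strand) it had 0, 4 and 2 reads in M0 and 3, 1 and 3 reads in M2, or at most 0.0770 TPM in any library. The groups overlapped. The rate ratio of 1.08 had a 95% interval of 0.311 to 3.89 for counting error only, so a change within those bounds is not excluded.

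**Figure D3:**
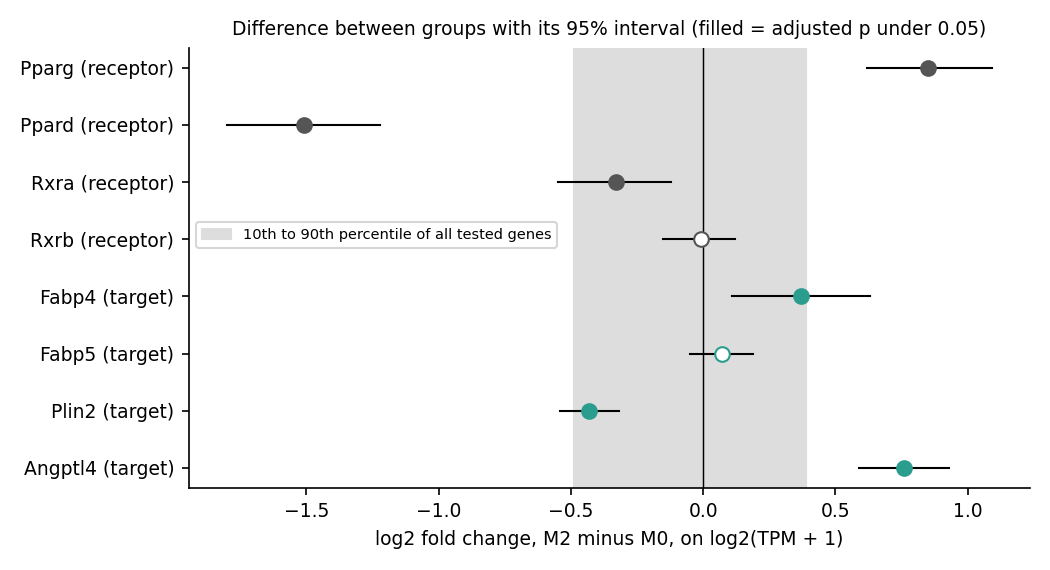
Log2 fold change, M2 minus M0, on log2(TPM + 1) (horizontal axis) of the 8 tested genes, with 95% intervals; filled points passed at an adjusted p under 0.05, dark points are receptors and green points targets, and the grey band runs from the 10th to the 90th percentile of all 11202 genes. Ppard (-1.51), Pparg (0.85) and Angptl4 (0.76) lie outside the band.

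Set beside each other, receptors and targets each held genes of both directions. Of 4 receptor genes tested, 1 rose and 2 fell, with a median log2 fold change of -0.17. Of 4 targets tested, 2 rose and 1 fell, with a median of 0.22. Over all 11202 genes tested, 20.1% rose and 23.7% fell, and the median was -0.03. The difference between receptors and targets was not tested, since the members are few and chosen by name. Summed, the 6 targets came to 446 to 466 TPM in M0 and 426 to 444 TPM in M2, most of it Fabp5 and Plin2.

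Other genes of the pathway fell more often than they rose. Of 96 genes in 5 lists (partner receptors, coregulators, other PPAR targets, paralogs of the 6 targets, and upstream inducers and ligand sources), 65 were tested, of which 10 rose, 25 fell and 30 did not pass. Their median log2 fold change was -0.20, beside -0.03 over all genes. These counts, and those of each list below, stand against backgrounds of 20.1% that rose and 23.7% that fell.

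Among 12 partner receptors 6 were tested, and 1 rose and 3 fell (median -0.19). The retinoic acid receptors went both ways. Rara rose from 4.45 ± 0.721 to 7.58 ± 0.562 TPM (log2 fold change 0.66, limma adjusted p = 0.00169), while Rarg fell from 8.66 ± 0.411 to 3.93 ± 0.250 TPM (-0.97, 5.22e-05). Thra, the thyroid hormone receptor alpha, fell from 5.82 ± 0.458 to 2.43 ± 0.137 TPM (-0.99, limma adjusted p = 7.97e-05; -0.59 from the log2-scale values the authors deposited). The third that fell was Nr1h2, the oxysterol receptor LXR-beta, with means of 45.8 TPM without and 33.0 TPM with IL-4 (-0.46), named after its values were seen. Its sister Nr1h3 (LXR-alpha) stood at 0.900 and 1.32 TPM and did not pass (limma adjusted p = 0.0505).

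Coregulators, which link the receptors to chromatin enzymes, mostly did not pass: of 15 tested, 2 rose, 3 fell and 10 did not pass (median -0.21). Ppargc1b, the coactivator PGC-1-beta, had a mean of 2.65 TPM in the M0 and 3.52 TPM in the M2 libraries (log2 fold change 0.31, limma adjusted p = 0.0319), but that call was lost under 6 of 15 alternatives (up to 0.105). Sirt1, a deacetylase, stood at 14.1 and 17.2 TPM (0.27, limma adjusted p = 0.0159), lost under 3 of 15 (up to 0.0648). Tbl1xr1, part of the NCoR corepressor complex, fell from 15.8 to 12.2 TPM (-0.36, limma adjusted p = 0.00965) and was called under all 15 alternatives, but its log2 fold change was -0.22 with the length trend removed. The coactivator gene Ncoa6, at 14.7 and 10.9 TPM (-0.42, limma adjusted p = 0.0462), lost its call under 5 of 15 (up to 0.130), and without M2 replicate 3 its log2 fold change was -0.23. Ppargc1a, the coactivator PGC-1-alpha, was below the filter.

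Of 41 other PPAR targets 30 were tested: 2 rose, 13 fell and 15 did not pass (median -0.14). Acsl1, which couples fatty acids to coenzyme A, rose from 29.5 ± 2.64 to 43.8 ± 4.56 TPM (log2 fold change 0.55, limma adjusted p = 0.00156). Its relative Acsl5 went from 114 to 126 TPM (0.14, limma adjusted p = 0.0438), a call lost under 6 of 15 alternatives (up to 0.137). Abca1, the cholesterol exporter that LXR also drives, fell from 27.5 ± 2.57 to 11.4 ± 2.13 TPM, 2.42-fold (-1.22, limma adjusted p = 1.36e-04). Lipe, hormone-sensitive lipase, fell from 9.28 to 6.46 TPM (-0.47, limma adjusted p = 0.00444). Lpl, the lipase that Angptl4 inhibits, was abundant in both groups, at 571 ± 10.8 and 585 ± 30.2 TPM (limma adjusted p = 0.653), and is named after its values were seen.

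Paralogs of the 6 targets did not all follow them. Of 17, only 6 passed the filter, of which 1 rose and 3 fell (median -0.31). Angptl2, a secreted relative of Angptl4, rose 2.21-fold, from 3.52 ± 0.339 to 7.76 ± 1.19 TPM (log2 fold change 0.95, limma adjusted p = 2.93e-04). The droplet coat gene Plin3 fell from 103 ± 0.815 to 71.0 ± 4.91 TPM (-0.53, limma adjusted p = 2.26e-04), as Plin2 did. Where Pdk4 was near 0, the pyruvate dehydrogenase kinase transcripts were those of Pdk1 (34.4 and 25.4 TPM) and Pdk3 (27.3 and 27.9 TPM), both named after their values were seen. Pdk1 fell (-0.43, limma adjusted p = 0.00147), and so did the scarcer Pdk2, from 1.75 to 0.995 TPM (-0.47, limma adjusted p = 0.00987; -0.80 with limma-voom, -0.21 from the log2-scale values the authors deposited). Fabp1, Fabp2, Fabp3, Fabp6 and Fabp7 all lay below the filter.

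Upstream genes, which carry the IL-4 signal, drive Pparg in fat cells or make PPAR ligands, moved in both directions. Of the 8 tested, 4 rose and 3 fell (median 0.12). Il4ra, the IL-4 receptor chain, rose to 8.09 ± 0.777 TPM from 4.14 ± 0.227 TPM (log2 fold change 0.82, limma adjusted p = 2.31e-04). Stat6, which also carries the IL-4 signal, fell from 65.5 to 52.2 TPM (-0.33, limma adjusted p = 0.0168), and is named after its values were seen. Klf4, a transcription factor of alternative activation, rose from 4.94 ± 0.732 to 9.50 ± 0.401 TPM (0.83, limma adjusted p = 3.37e-04). Cebpb and Cebpd, which precede Pparg in fat cell differentiation, fell from 196 to 130.3 TPM (-0.59, limma adjusted p = 8.82e-04) and from 13.2 to 7.84 TPM (-0.69, limma adjusted p = 8.92e-04). Cebpa, their partner in that pathway, rose from 14.1 to 21.3 TPM (0.57, limma adjusted p = 3.64e-04), and is named after its values were seen.

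**Figure D4:**
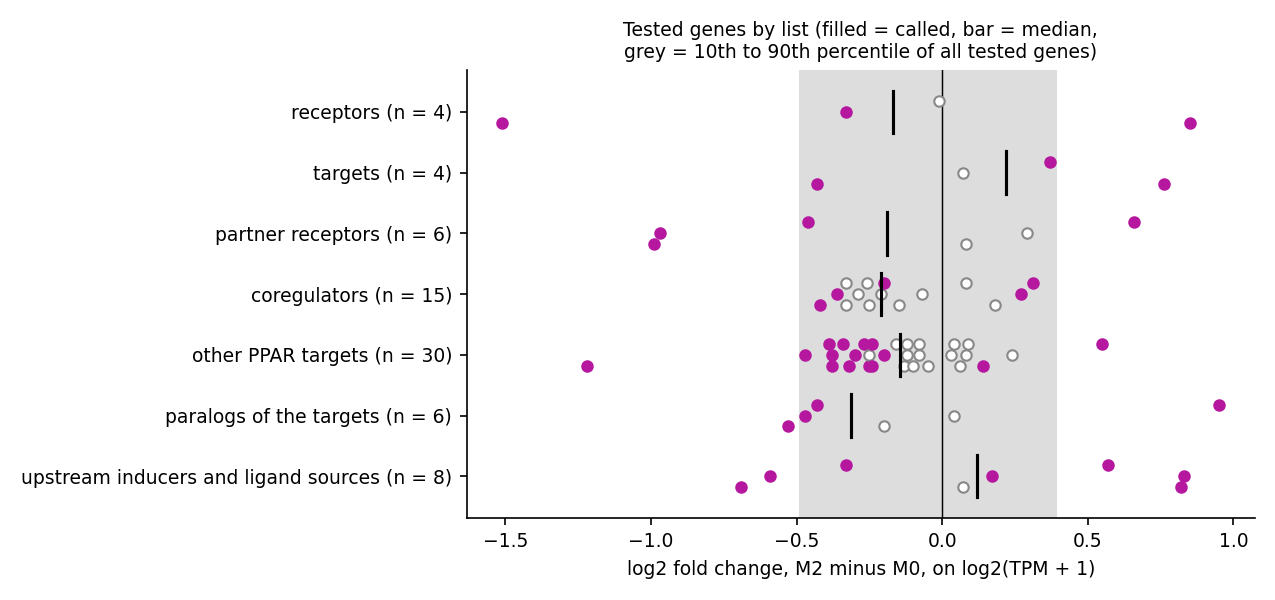
Log2 fold change, M2 minus M0, on log2(TPM + 1) (horizontal axis) of each tested gene in the receptors, the targets and 5 lists of pathway genes; filled points passed at an adjusted p under 0.05, black bars are list medians, and the grey band is the 10th to 90th percentile of all 11202 genes. The median is 0.22 for the targets and 0.12 for the upstream list, and negative for the others, from -0.31 to -0.14.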

How the data were processed

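The authors' deposited table of TPM per gene and library (1 transcript model per gene) was used, with a second deposited table of log2-scale values and the authors' own test (log2 fold change, raw and adjusted p-value). The submitters' processing notes name STAR 2.7.5a, HOMER 4.11.1, DESeq2 and mm10 without roles, and whether counting used strand is not stated there. There, 4 members (Rxra, Rxrb, Fabp5, Cd36) have another transcript model. Genes with at least 1 TPM in at least 3 libraries (11202) were fitted by group on log2(TPM + 1) with limma 3.58.1 (R 4.3.3, variance trend), with Benjamini-Hochberg adjustment over all of them. Reads were recovered from TPM times length, and 100.0% of checked values lay within 0.1 read of a whole number. Libraries of a group were not duplicates (chi-square per degree of freedom at least 2.13). The fit was tested on simulated data, with changes larger than those of Rxra, Fabp4, Plin2 and Angptl4 and with no length trend. It therefore does not bear on calls of that size. Nor does it bear on the call of Pparg, which had fewer reads in M0 than the simulation set for any gene it changed. All 10 members are named, and from each list the 2 largest rises and falls among called genes. Members and lists were chosen with earlier results of these data known. The alternatives were another pseudocount, filter, scaling, test, a replicate block, and each library left out, and removal of a gene-length trend (20 bins) was added after the data were seen.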

Additional observations from a re-analysis of the deposited data

How the results depend on the processing

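Over 15 alternatives, 6 members were called except without M0 replicate 2 or 3 (4 each) and in the authors' deposited test (7, with Cd36). With no filter on low values, the 6 included Cd36 (limma adjusted p = 0.0472) and not Fabp4 (0.0805). Leaving out 1 library in turn, 1 to 2 receptors fell and 1 to 2 targets rose. Of the genes in the 5 lists, 22 to 38 were called, 6 to 12 upward and 15 to 26 downward. Over all genes 3556 to 5694 were called with 1 library left out. With the gene-length trend removed 6210 were, and 41 in the lists (13 upward, 28 downward). Pparg, Ppard, Plin2 and Angptl4 were called under every alternative. Rxrb turned sign, to 0.02 with median-ratio scaling, with the authors' deposited log2-scale values and with limma-voom, to 0.00 with the length trend removed and to 0.03 in the authors' test, and it ran from -0.05 to 0.01 with 1 library left out, with adjusted p from 0.564 to 0.999. The cause was not tested. With the replicate number as a block 4870 genes were called (4899 without it), and the 6 members stayed called while Acsl5 was lost (adjusted p = 0.0511). The numbers are not shown to pair the libraries: deviations of same-numbered libraries correlated at -0.0329, 0.211 and 0.0289, and not every library correlated best with its own number. Depth limits Pdk4, Cd36 and Pparg most, at 6 and 7, 28 and 72, and 33 and 133 reads over the M0 and M2 libraries.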

Other observations

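Genes of the same lists that lay below the filter held further values, named here after they were seen. Egr2, a transcription factor induced by IL-4 in macrophages, had 0.147, 0.178 and 0.116 TPM in M0 and 0.968, 1.25 and 0.619 TPM in M2, on 17 and 116 reads. Every M2 library was above every M0 library. Tgm2, the transglutaminase used as a marker of alternative activation, had 0.0180, 0.0750 and 0.0210 TPM in M0 and 0.328, 0.169 and 0.130 TPM in M2, on 6 and 35 reads, and again the groups did not overlap. Alox15, of the same upstream list as Egr2, went the other way, with means of 0.627 TPM in M0 and 0.496 TPM in M2. It had 66 and 57 reads, and its groups overlapped. Over all genes tested, the groups did not overlap for 55.9%. Egr2, Tgm2 and Alox15 lay outside the genes fitted, and no test of them is given.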
